A study of Mus musculus with 8 samples.

Results

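The genes of the ATR checkpoint, homologous recombination and the Fanconi anaemia pathway, 41 in all, were examined in mouse mammary tumour cells treated with the topoisomerase I poison camptothecin. The list was put together by gene function, with earlier results of these data known. It was divided by step into 14 checkpoint genes, 5 genes of DNA end processing, 10 of strand exchange, 6 of the Fanconi pathway and 6 of junction processing. Probes were matched to 40 of the 41 genes, out of 32053 features (named genes and unnamed probes) on the array, and Rpa1, the large subunit of replication protein A, was not analysed here. All 40 genes were well above background on every array, and all were tested.

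The cells came from tumours driven by the polyoma middle T (PyMT) transgene in FVB mice. In the first experiment, line WTA, wild type for Mtdh, carried either the LKO1-shSnd1 hairpin vector (Snd1 knockdown, 3 arrays) or the empty LKO1 vector (3 arrays), and both were selected with puromycin. In the second, line KO2 from MTDH-KO mice carried LmPGK-mMtdh-ires2-GFP (wild-type rescue, 1 array) or LmPGK-mMtdhspm13-ires2-GFP, in which Mtdh has the W391D change (1 array), and cells were sorted for GFP. Mtdh (metadherin) is a binding partner of Snd1, and the study asked how this pair bears on survival under replication stress. All 8 samples had received 50 uM camptothecin for 36 h, so no value below compares treated with untreated cells. Each genotype is represented by 1 line, and 1 hairpin construct is named. Sample RNA carried Cy5 and was set against a Cy3-labelled reference RNA mixed from 11 mouse cell lines. Levels are given as log2 Cy5/Cy3, so that a value of 0 equals the reference.

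A replication fork that meets topoisomerase I trapped on DNA can stall or break. Replication protein A coats the exposed single strand, the kinase ATR is recruited there, and its target kinase CHK1 holds back the cell cycle and protects other forks. A broken fork is repaired by homologous recombination, in which the end is resected, the single strand invades the sister chromatid, and the joined molecules are afterwards dissolved or cut. The Fanconi proteins act on blocked forks and pass them to the same repair machinery. Many of these genes are transcribed mainly in S and G2 phase, so that their RNA in a population also follows the share of cycling cells.

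Signals were well above background in Cy5 for 78.02% to 88.47% of spots per array, and no spot was saturated. The knockdown and vector arrays lay on 2 slides, replicate 1 of both groups on the first and replicates 2 and 3 on the other, while a separate slide held each rescue sample. The targeted gene, Snd1, measured -3.23, -3.33 and -3.44 in the knockdown and -2.49, -2.40 and -2.43 in the vector cells, a 1.86-fold fall with no overlap (-0.90 ± 0.06 on the log2 scale, SE, n = 3 and 3, limma adjusted p = 1.04e-05). The labels do not say whether replicates were separate cultures, so the p-values reflect array-to-array spread that could be purely technical, and the number of arrays limits the precision.

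Of the 12 mammary epithelial markers, all were well above background on all 6 arrays of the knockdown experiment, 7 fell and 3 rose, with a summed normalised Cy5 signal of 215250 to 232705 in the knockdown and 289170 to 335246 in the vector cells. The fibroblast markers rose in 7 of 10 tested, with a summed signal of 18479 to 20963 in the knockdown and 8111 to 8932 in the vector cells. Leukocyte markers summed to 4528 to 4617 against 5248 to 5767, and endothelial markers to 2487 to 2720 against 2070 to 2201, with Tek not well above background on any of the 6 arrays. Of 7 leukocyte markers tested, 2 rose and 2 fell (median log2 fold change 0.13). Of 6 endothelial markers tested, 2 rose and 2 fell (median 0.04). The rescue arrays (wild-type, then W391D) had sums of 403712 and 444138 for epithelial and 17385 and 19102 for fibroblast markers. Their leukocyte sums were 6239 and 6704, and their endothelial sums 1432 and 1650. The part of these differences in the results below was not tested.

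How the recombination and checkpoint genes differed between camptothecin-treated cells with reduced Snd1 and their vector controls was the first comparison. Most of them were lower in the knockdown. Transcripts of 30 of the 40 genes fell, 3 rose (Rad9a, Mus81 and Slx4) and 7 did not pass the test (limma, Benjamini-Hochberg adjusted p under 0.05 over 25673 features). Over all features tested, 21.1% fell and 23.7% rose. The fall reached 2-fold in 6 genes (Rpa3, Exo1, Rad54l, Fanci, Rad51ap1 and Gen1), against 1.52% of all features. A rise of 2-fold was seen in 1 gene, Rad9a, against 2.27% of all features. The median log2 fold change of the 40 genes was -0.50, and that of all features tested was 0.02. Taken within each slide, it was -0.52 (first) and -0.50 (second).

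On the single arrays, the median log2 ratio of the 40 genes was -0.41, -0.44 and -0.44 in the knockdown and 0.12, 0.07 and 0.07 in the vector cells. The rescue arrays, from the other line, had medians of 0.20 (wild-type Mtdh) and 0.14 (W391D). The 3 knockdown arrays therefore lay apart from the other 5. Gene by gene, the knockdown arrays lay below all 3 vector arrays without overlap in 31 genes (24.5% of all features) and above them in 5 (28.7% of all features). They lay below all 5 other arrays in 30 genes (18.1% of all features) and above all 5 in Atrip, Rad9a, Mus81 and Slx4 (19.8% of all features).

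**Figure D1:**
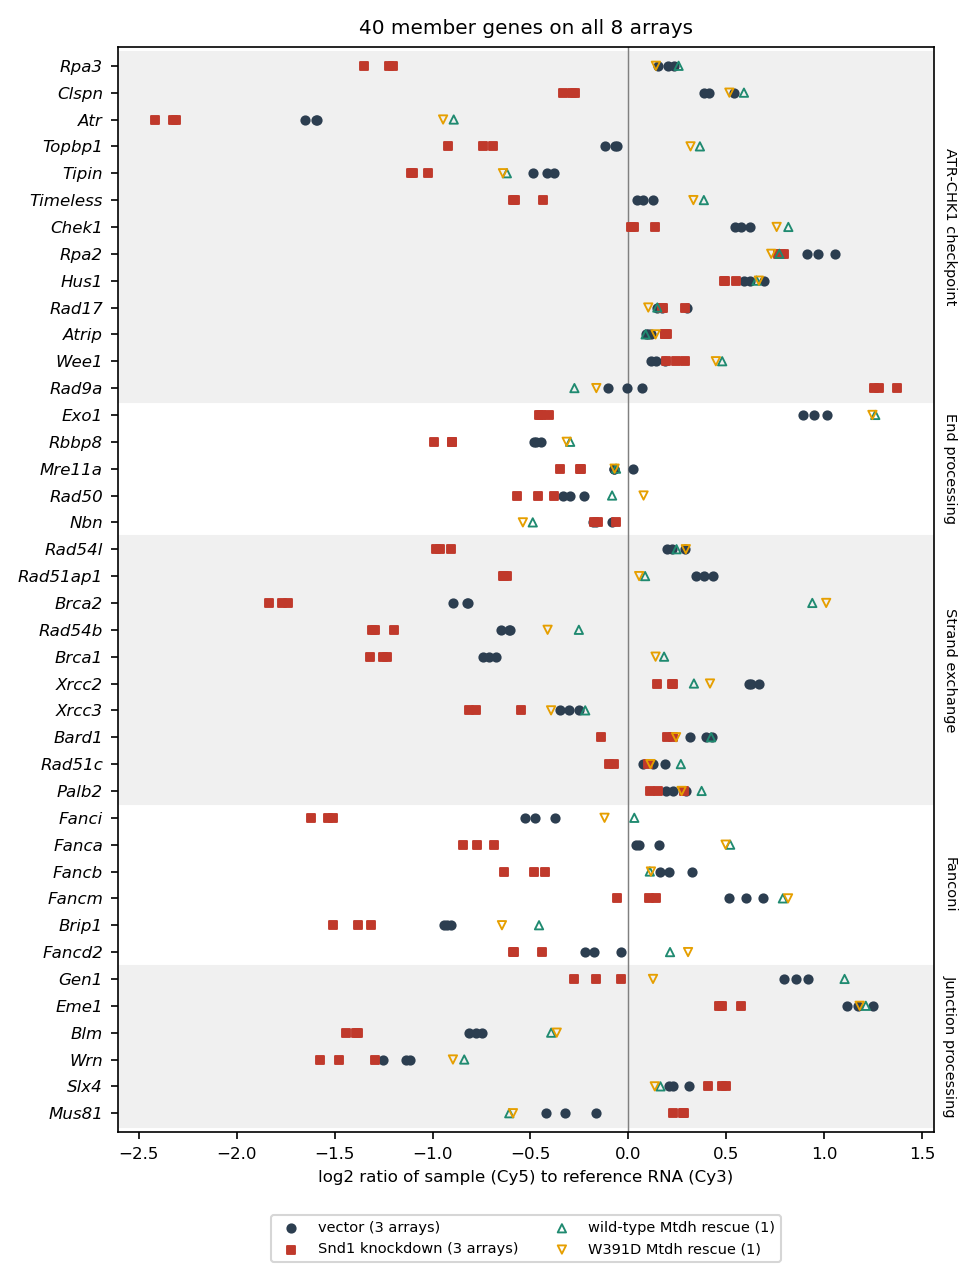
Each row is 1 gene and each point 1 array, with the log2 ratio of sample (Cy5) to reference RNA (Cy3) on the horizontal axis, and shading separates the 5 steps. The knockdown squares lie left of the vector circles without overlap in 31 genes and right of them in 5, with Rpa3 and Exo1 widely separated to the left and Rad9a to the right.

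Because so many of these genes fell together, their promoter windows were searched for sequence motifs of cell-cycle genes. RefSeq windows of 300 bases (assembly GRCm38.p6, 250 before to 50 after the start) were held for 30 of the 41 genes and for 27025 genes in all. E2F-type sites were searched as TTTGGCGC, TTTCGCGC, TTTGCCGC or TTTCCCGC, the CCAAT box as CCAAT and the cell-cycle homology region as TTTGAA, each on both strands, and matches could overlap. E2F factors act at G1/S promoters, and CCAAT boxes and cell-cycle homology regions recur in promoters of G2/M genes. An E2F-type match was present in 5 of 30 windows (16.7%; 2.32% of all windows), namely those of Clspn, Topbp1, Bard1, Brca2 and Rad51c, of which Rad51c did not pass the expression test. A CCAAT match was present in 17 of 30 (56.7%; 37.9% of all windows), and TTTGAA in 3 of 30 (18.1% of all windows). Among the 22 windows of genes that fell, 4 held an E2F-type match (18.2%) and 13 a CCAAT match (59.1%). Among the other 8 windows, that of Rpa1 included, 1 held an E2F-type match (12.5%) and 4 a CCAAT match (50%).

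The windows of 7 genes are shown as examples: Rpa3, Rad54l, Fanci and Rad51ap1 fell at least 2-fold, Brca2 and Clspn fell and hold an E2F-type match, and Mus81 rose. Gen1 (2-fold lower, no match) and Topbp1 and Bard1 (lower, with an E2F-type match) meet the same criteria and are not shown. Slx4, which rose and holds 1 CCAAT match, is not shown either. Each window printed runs 5′ to 3′ along the gene's own strand, and capitals mark the matches. The Rpa3 window (chr6:8259092-8259391, minus strand) holds 2 CCAAT boxes in reverse orientation, that of Rad54l (chr4:116123641-116123940, minus strand) holds 1 in forward orientation, and that of Rad51ap1 (chr6:126939538-126939837, minus strand) holds 2 in reverse. Brca2 (chr5:150522371-150522670, plus strand) has an E2F-type match, and Clspn (chr4:126556730-126557029, plus strand) has 1 E2F-type match and 2 CCAAT matches. No match to these letters was found in the windows of Fanci (chr7:79392088-79392387, plus strand) and Mus81 (chr19:5488330-5488629, minus strand).
Rpa3: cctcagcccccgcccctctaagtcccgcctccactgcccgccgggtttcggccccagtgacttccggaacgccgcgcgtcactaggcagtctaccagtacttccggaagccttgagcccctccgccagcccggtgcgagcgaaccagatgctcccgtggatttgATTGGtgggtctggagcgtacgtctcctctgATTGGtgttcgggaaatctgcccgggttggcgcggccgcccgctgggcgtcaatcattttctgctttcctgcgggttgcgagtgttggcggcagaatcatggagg
Rad54l: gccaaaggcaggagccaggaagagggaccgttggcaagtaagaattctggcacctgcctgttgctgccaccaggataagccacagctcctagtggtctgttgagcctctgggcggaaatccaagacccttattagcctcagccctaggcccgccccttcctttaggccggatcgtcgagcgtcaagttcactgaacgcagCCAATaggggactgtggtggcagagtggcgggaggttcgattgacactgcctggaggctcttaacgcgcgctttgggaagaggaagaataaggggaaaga
Rad51ap1: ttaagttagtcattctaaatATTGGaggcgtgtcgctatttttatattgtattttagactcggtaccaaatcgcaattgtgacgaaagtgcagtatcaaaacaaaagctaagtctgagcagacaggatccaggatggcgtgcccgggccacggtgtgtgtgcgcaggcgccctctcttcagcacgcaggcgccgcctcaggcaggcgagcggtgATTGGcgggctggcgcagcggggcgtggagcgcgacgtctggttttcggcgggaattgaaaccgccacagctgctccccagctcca
Fanci: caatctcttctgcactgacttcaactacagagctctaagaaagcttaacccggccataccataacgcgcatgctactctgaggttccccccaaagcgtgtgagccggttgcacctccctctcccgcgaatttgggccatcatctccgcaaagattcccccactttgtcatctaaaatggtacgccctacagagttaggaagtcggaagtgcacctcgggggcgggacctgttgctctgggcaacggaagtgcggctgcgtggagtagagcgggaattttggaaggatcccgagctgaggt
Brca2: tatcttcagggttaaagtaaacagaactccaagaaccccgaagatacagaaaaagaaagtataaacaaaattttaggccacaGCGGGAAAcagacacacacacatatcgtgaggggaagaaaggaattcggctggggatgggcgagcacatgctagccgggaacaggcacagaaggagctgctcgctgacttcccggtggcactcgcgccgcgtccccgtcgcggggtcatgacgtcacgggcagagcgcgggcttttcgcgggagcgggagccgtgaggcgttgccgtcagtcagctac
Clspn: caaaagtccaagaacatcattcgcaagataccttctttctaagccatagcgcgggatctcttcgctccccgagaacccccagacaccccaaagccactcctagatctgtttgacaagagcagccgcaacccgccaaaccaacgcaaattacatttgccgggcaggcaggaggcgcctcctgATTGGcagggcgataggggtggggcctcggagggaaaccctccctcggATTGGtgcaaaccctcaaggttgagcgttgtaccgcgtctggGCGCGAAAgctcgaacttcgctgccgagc
Mus81: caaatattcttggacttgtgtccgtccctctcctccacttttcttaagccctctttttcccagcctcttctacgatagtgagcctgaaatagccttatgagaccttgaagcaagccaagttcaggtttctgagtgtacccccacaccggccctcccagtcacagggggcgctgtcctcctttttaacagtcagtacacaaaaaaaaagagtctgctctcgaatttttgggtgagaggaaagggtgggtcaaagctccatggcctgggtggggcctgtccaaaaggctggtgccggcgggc
A match in these windows is a description of the letters and not a site shown to be bound. The median log2 fold change was -0.70 in the 5 genes with an E2F-type match and -0.55 in the 24 without, -0.55 in 16 with a CCAAT match and -0.62 in 13 without, and -0.28 in 3 with TTTGAA and -0.59 in 26 without.

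Among the checkpoint genes, those that sense and signal at the stalled fork were mostly lower. Of 13 tested, 8 fell, 1 rose and 4 did not pass the test, with a median log2 fold change of -0.52. Among all features, 21.1% fell and 23.7% rose. Replication protein A is the single-strand binding complex that starts the signal, and its small subunit Rpa3 fell the most of all 40 genes. Rpa3 measured -1.22, -1.20 and -1.35 in the knockdown and 0.15, 0.23 and 0.20 in the vector cells. The groups were far apart, and the change of -1.45 ± 0.05 (SE, n = 3 and 3) was 2.74-fold (adjusted p = 4.37e-07). The middle subunit Rpa2 fell by 0.20 ± 0.05 (adjusted p = 0.0113).

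The kinase itself and its activators moved in the same direction. Atr measured -2.33, -2.42 and -2.31 in the knockdown and -1.59, -1.65 and -1.60 in the vector cells, a fall of 0.74 ± 0.05 with no overlap (adjusted p = 7.06e-06). Claspin (Clspn), the adaptor that presents CHK1 to ATR, measured -0.27, -0.29 and -0.33 in the knockdown and 0.54, 0.39 and 0.41 in the vector cells. This change of -0.74 ± 0.05 also left the groups apart (adjusted p = 1.2e-05). Topbp1, which activates ATR, fell by 0.70 ± 0.06 (adjusted p = 4.79e-05). The fork protection pair fell together, Tipin by 0.65 ± 0.05 (adjusted p = 1.67e-05) and Timeless by 0.62 ± 0.06 (adjusted p = 4.16e-05). Chek1, which encodes CHK1, fell by 0.52 ± 0.05 (adjusted p = 6.21e-05).

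The remaining checkpoint genes tested were not called lower. Rad9a, a subunit of the 9-1-1 clamp that brings TOPBP1 to ATR, rose. It measured 1.37, 1.28 and 1.25 in the knockdown and 0.07, -0.10 and -0.01 in the vector cells. The knockdown arrays lay well above the vector arrays, by 1.32 ± 0.06 or 2.49-fold (adjusted p = 1.12e-06), and by 1.30 and 1.32 within the 2 slides. Its clamp partner Hus1 differed by -0.12 ± 0.05 and did not pass the test (adjusted p = 0.0638, or 0.0471 and called with the slide as a block), with 0.49, 0.49 and 0.55 in the knockdown and 0.69, 0.62 and 0.59 in the vector cells. The clamp loader gene Rad17 overlapped between groups, with 0.18, 0.17 and 0.29 against 0.30, 0.15 and 0.17 (difference 0.0078 ± 0.058, adjusted p = 0.932). Atrip, the obligate partner of ATR, differed by 0.090 ± 0.040 (adjusted p = 0.104), its 3 knockdown arrays at 0.19, 0.19 and 0.20 and its vector arrays at 0.12, 0.10 and 0.09. Wee1, the kinase that restrains CDK1, measured 0.24, 0.19 and 0.29 against 0.12, 0.14 and 0.19 and differed by 0.093 ± 0.046 (adjusted p = 0.146). ATR and its partner thus differed in call, as did the clamp subunits.

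In the processing of broken ends, 4 of 5 genes fell (21.1% of all features) and 1 did not pass the test, with a median of -0.24. Exo1, the nuclease of long-range resection, showed the main change. It measured -0.46, -0.45 and -0.41 in the knockdown and 1.01, 0.89 and 0.95 in the vector cells, so that it passed from above to below the reference. The change was -1.39 ± 0.05, or 2.62-fold (adjusted p = 3.07e-07). Rbbp8, which encodes CtIP, the factor that starts resection, measured -0.99, -0.90 and -0.90 against -0.48, -0.47 and -0.45 and fell by 0.46 ± 0.05 (adjusted p = 7.01e-05).

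Smaller values were found for the complex of MRE11, RAD50 and NBN, which binds the broken end. Mre11a measured -0.35, -0.25 and -0.24 in the knockdown and 0.02, -0.07 and -0.07 in the vector cells, a fall of 0.24 ± 0.05 (adjusted p = 0.00602) that was -0.37 within the first slide and -0.17 within the other. Rad50 fell by 0.19 ± 0.06 (adjusted p = 0.0343), a call that was lost without knockdown replicate 2 or 3 (adjusted p = 0.0794 and 0.11) or vector replicate 1 or 3 (0.0931 and 0.0786). Nbn overlapped, with -0.06, -0.16 and -0.18 against -0.09, -0.18 and -0.16 (difference 0.012 ± 0.051, adjusted p = 0.881).

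In strand exchange, 8 of 10 genes fell (21.1% of all features), none rose (23.7%) and 2 did not pass the test, with a median of -0.50. The 3 largest falls were in Rad54l, Rad51ap1 and Brca2. Rad54l, the motor protein that promotes strand invasion, measured -0.91, -0.98 and -0.96 in the knockdown and 0.20, 0.22 and 0.29 in the vector cells. It fell 2.28-fold with no overlap (-1.19 ± 0.05, adjusted p = 5.75e-07). Rad51ap1, a stimulator of the same step, measured -0.64, -0.63 and -0.62 against 0.35, 0.38 and 0.43 and fell 2.03-fold (-1.02 ± 0.04, adjusted p = 8.36e-07). Brca2, the mediator of strand exchange, measured -1.84, -1.74 and -1.77 against -0.82, -0.89 and -0.82. Its fall of 0.94 ± 0.05 was 1.91-fold (adjusted p = 1.99e-06), and the groups were again separate.

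Smaller falls were measured in the paralog of the motor protein and in the BRCA1 complex. Rad54b fell by 0.65 ± 0.05 (adjusted p = 1.38e-05) and Brca1, which acts in resection and strand exchange, by 0.56 ± 0.05 (adjusted p = 2.49e-05). Its partner Bard1 measured 0.20, 0.23 and -0.14 against 0.40, 0.43 and 0.32 and fell by 0.28 ± 0.10 (adjusted p = 0.0416). That call did not hold without knockdown replicate 3, the lowest array at -0.14, where the change was -0.17 (adjusted p = 0.0522), nor without vector replicate 1, 2 or 3 (0.0857, 0.117 and 0.0629). Xrcc2 and Xrcc3, which support strand exchange, fell by 0.44 ± 0.04 and 0.41 ± 0.07 (adjusted p = 8.72e-05 and 0.00207), and the Xrcc3 difference was -0.20 within the first slide and -0.52 within the other.

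Palb2, the bridge between BRCA1 and BRCA2, was not called. It measured 0.11, 0.15 and 0.28 in the knockdown and 0.19, 0.29 and 0.23 in the vector cells (difference -0.056 ± 0.058, adjusted p = 0.491). Rad51c, which works in a complex with Xrcc3, measured -0.07, 0.10 and -0.10 against 0.12, 0.07 and 0.19 (difference -0.15 ± 0.06, adjusted p = 0.0948), and without knockdown replicate 2, the highest of its group, it was called (-0.21, adjusted p = 0.0229). Both genes overlapped between the groups.

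All 6 Fanconi genes fell (21.1% of all features), with a median of -0.64. Fanci, one subunit of the clamp that is ubiquitinated on blocked forks, measured -1.62, -1.51 and -1.53 in the knockdown and -0.48, -0.37 and -0.53 in the vector cells. The fall was 2.13-fold (-1.09 ± 0.06, adjusted p = 2.22e-06). Fanca, of the core complex that carries out the ubiquitination, measured -0.69, -0.77 and -0.84 against 0.15, 0.05 and 0.04, a fall of 0.85 ± 0.06 (adjusted p = 8.44e-06). Fancb, another core subunit, measured -0.63, -0.43 and -0.48 against 0.16, 0.21 and 0.32 and fell by 0.74 ± 0.07 (adjusted p = 4.78e-05). In each of these 3 genes the groups were separate. Fancm, the translocase that anchors the core complex, fell by 0.54 ± 0.07 (adjusted p = 0.000309). The helicase Brip1 (FANCJ) fell by 0.48 ± 0.06 (adjusted p = 0.000229), and Fancd2, the other clamp subunit, by 0.40 ± 0.07 (adjusted p = 0.00137).

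In junction processing, 4 of 6 genes were lower and 2 higher (21.1% and 23.7% of all features), with a median of -0.45. Gen1, a resolvase that cuts Holliday junctions, measured -0.28, -0.17 and -0.04 in the knockdown and 0.79, 0.92 and 0.86 in the vector cells, a 2.02-fold fall (-1.02 ± 0.07, adjusted p = 7.9e-06). Eme1, the partner subunit of the MUS81 nuclease, measured 0.57, 0.48 and 0.46 against 1.25, 1.12 and 1.17 and fell by 0.68 ± 0.05 (adjusted p = 2.23e-05). Blm, the helicase that dissolves double junctions without a cut, measured -1.44, -1.38 and -1.39 against -0.82, -0.78 and -0.75 and fell by 0.63 ± 0.04 (adjusted p = 1.07e-05). The groups did not overlap in any of the 3 genes. The related helicase Wrn fell by 0.28 ± 0.08 (adjusted p = 0.0178), a call that was lost without knockdown replicate 2 or 3 (adjusted p = 0.0588 and 0.0607) or vector replicate 1 or 2 (0.0509 and 0.0586). It had -0.18 within the first slide and -0.33 within the other.

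The catalytic subunit Mus81 changed in the opposite direction to Eme1. Mus81 measured 0.23, 0.28 and 0.28 in the knockdown and -0.42, -0.32 and -0.17 in the vector cells. It was 1.48-fold higher (0.57 ± 0.07, adjusted p = 0.000201), with all knockdown arrays above 0 and all vector arrays below. Slx4, the scaffold that holds the structure-specific nucleases, measured 0.41, 0.48 and 0.50 against 0.23, 0.21 and 0.31, a rise of 0.21 ± 0.05 (adjusted p = 0.00823). After centring of each array on its median, the Slx4 difference was 0.08 and no longer called (adjusted p = 0.343).

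**Figure D2:**
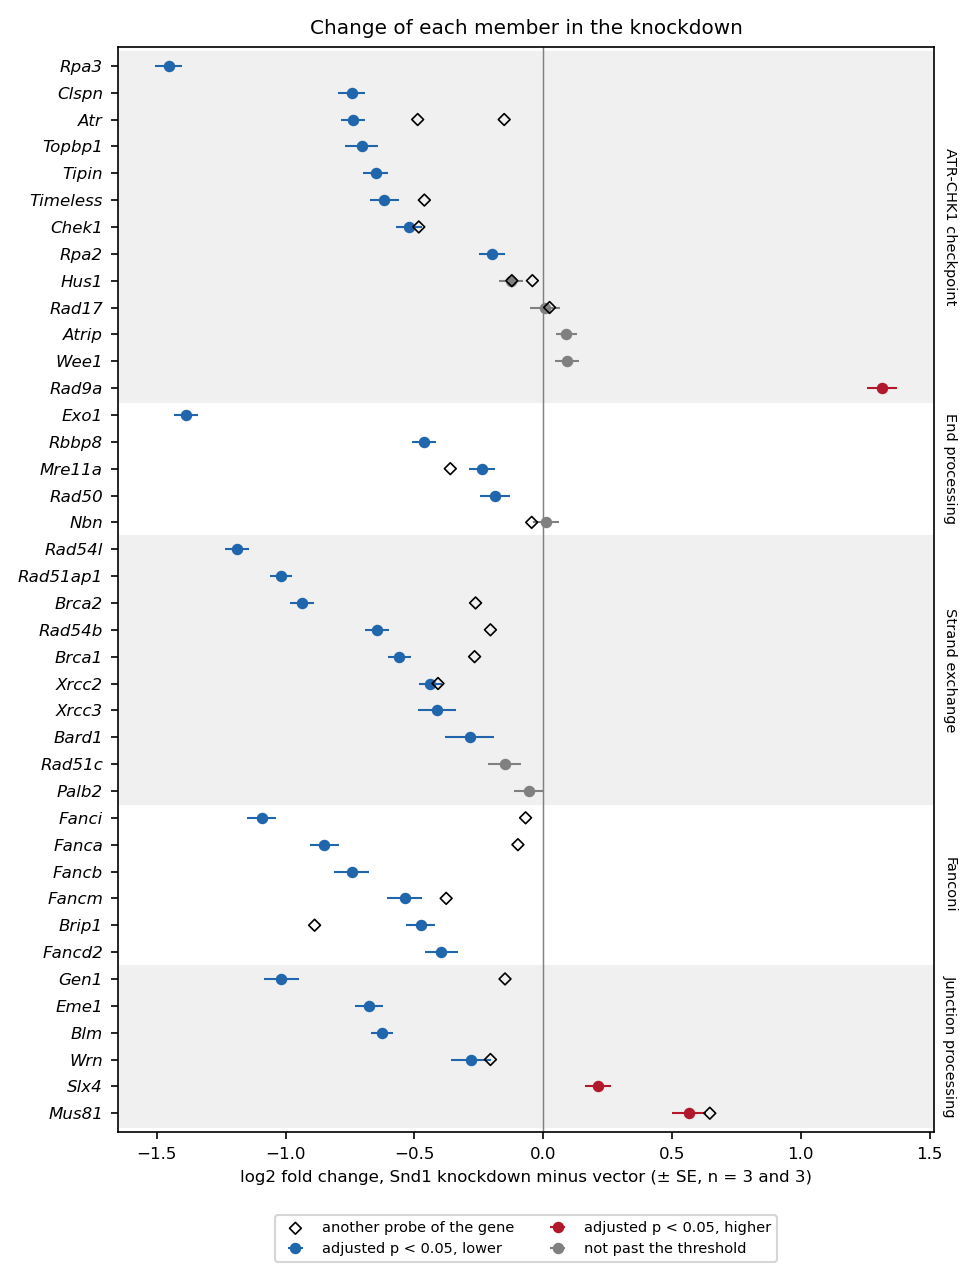
Points give the log2 fold change of each gene, Snd1 knockdown minus vector (n = 3 and 3), bars the standard error from limma, colour the call, and open diamonds other probes of the same gene. The 30 genes that fell lie to the left and Rad9a, Mus81 and Slx4 to the right, and the diamonds of Brca2, Fanca, Fanci and Gen1 sit nearer to 0 than the point.

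Other probes existed for 18 of the 40 genes. The 40 genes had 62 probes in all, and 60 of these were bright enough to test. Of these 60, which include the probes used above, 40 fell, 4 rose and 16 did not pass the test. Among all probes on the array, 22.1% were lower and 23.6% higher. Of the 20 tested probes that were not the brightest of their gene, 10 fell, 1 rose and 9 did not pass the test. Of the same 20, 14 gave the same call and sign as the probe used, and 14 differed in sign, in call or by more than 1.5 times in size. Mus81 rose by 0.65 in its other probe (adjusted p = 0.000294), and the second probes of Chek1, Timeless and Xrcc2 fell by 0.48, 0.46 and 0.41. Brip1 fell by 0.89 in its other probe, and Mre11a by 0.36.

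Smaller values came from several dimmer probes. For Fanci the other probe gave -0.07 (adjusted p = 0.451), at a median Cy5 signal of 144 against 1147 for the probe used. For Fanca it gave -0.10 (adjusted p = 0.265), at a signal of 129 against 3190. The other Brca1 probe gave -0.27 (adjusted p = 0.0572) and that of Brca2 -0.26 (adjusted p = 0.00474), both also dimmer. Rad54b had -0.20 (adjusted p = 0.016) and Gen1 -0.15 (adjusted p = 0.0359) in their other probes. Atr fell by 0.49 in one further probe, and another, at a signal of 103.5, gave -0.15 (adjusted p = 0.41). One other probe of Wrn gave -0.20 (adjusted p = 0.102). On the scale of the software's own log ratios, to which no offset of 50 was added, the probe used and the other probe gave -0.90 and -0.78 for Fanca, -0.62 and -0.66 for Brca1, -1.005 and -0.77 for Brca2 and -0.74 and -0.85 for Rad54b. They lay far apart on that scale as well for Fanci (-1.20 and -0.12) and Gen1 (-1.57 and -0.35). Among the called genes, that scale moved the value of the probe used by more than 1.5 times in Bard1 (-0.77), Wrn (-0.69), Fancd2 (-0.78) and Gen1, each time to a larger fall.

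The wider pathway held 55 further genes, of which 51 were tested. Of these, 32 fell (21.1% of all features), 9 rose (23.7%) and 10 did not pass the test, with a median of -0.33. Fancg, a core Fanconi subunit, fell by 1.28 ± 0.05 (adjusted p = 6.11e-07). The phosphatases Cdc25b and Cdc25c, which release the checkpoint by activating CDK1, fell by 1.14 ± 0.05 and 1.01 ± 0.05 (adjusted p = 1.22e-06 and 2.52e-06). Mnd1, a partner of meiotic strand exchange, fell by 0.84 ± 0.05 (adjusted p = 4.4e-06). The highest were Sfr1, a cofactor of strand exchange (1.13 ± 0.06, adjusted p = 3.22e-06), Faap100, a core Fanconi subunit (0.81 ± 0.05, adjusted p = 6.38e-06), Slx1b, the nuclease that binds SLX4 (0.38 ± 0.05), and the nuclease subunit Ercc1 (0.36 ± 0.04). Of the checkpoint kinases outside the 41 genes, Chek2 fell by 0.73 ± 0.05 (adjusted p = 9.83e-06) and Atm by 0.51 ± 0.05 (adjusted p = 0.000112). Other probes gave -0.59 and -0.23 for Fancg, -0.85 and -0.22 for Cdc25b, -0.67 for Cdc25c, -0.53 for Chek2 and -0.25 for Atm. For Slx1b the other probe gave -0.06 and was not called (adjusted p = 0.658).

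In end joining, the other route of break repair, 4 of 10 genes fell and 2 rose, with a median of -0.09, against 21.1% lower and 23.7% higher over all features. The highest was Nhej1, which aligns the ends for ligation, at 1.01 ± 0.04 (adjusted p = 1.01e-06), and Dntt also rose (0.23 ± 0.08). The 4 genes that fell were Xrcc5 (-0.42 ± 0.05), Xrcc6 (-0.37 ± 0.04), Xrcc4 (-0.34 ± 0.06) and Poll (-0.26 ± 0.05). These calls rest on the brightest probe. A dimmer probe gave -0.04 for Xrcc4 (adjusted p = 0.573) and 0.20 for Dntt (adjusted p = 0.13), neither called. Lig4, not called by its brightest probe, rose by 0.24 in its other probe (adjusted p = 0.0127). The other probes of Poll (-0.21) and Nhej1 (0.77) kept the call.

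Most general proliferation genes moved with the pathway. Of 28 replication genes 21 fell and 3 rose (median -0.60), and of 22 mitotic genes all fell in their brightest probe (median -1.17). Among all features, 21.1% fell and 23.7% rose. A second probe of the mitotic gene Bub1 rose by 0.20 (adjusted p = 0.00573), against -0.98 in the probe used. Further probes of the other mitotic genes fell. The 3 replication genes that rose were Ccne1 (0.59 ± 0.06), Ccne2 (0.38 ± 0.09) and Pcna (0.23 ± 0.05). Pola2, E2f1, Cdc6 and Fen1 did not pass the test. The median log2 ratio of the mitotic genes was -0.89, -0.86 and -0.87 on the knockdown arrays and 0.14, 0.11 and 0.15 on the vector arrays. Of 19 p53 target genes 16 rose and none fell (median 0.96), including Cdkn1a, the cell-cycle inhibitor p21, at 3.33 ± 0.05. In these bulk samples, fewer cells in cycle and less RNA per cell cannot be told apart, and the part of the cell cycle in the falls of the 40 genes was not tested.

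**Figure D3:**
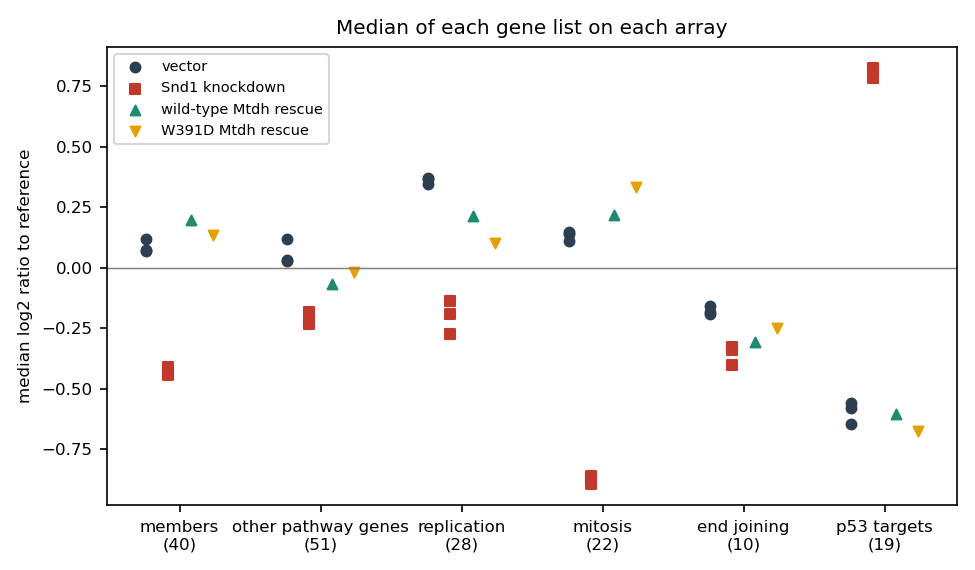
Each point is the median log2 ratio to the reference of a gene list on 1 array, with the number of genes tested under each list name. The 40 pathway genes lie at -0.44 to -0.41 in the knockdown and at 0.07 to 0.20 on the other 5 arrays, and the mitotic genes show the same order with a wider gap, while the p53 targets lie the other way round.

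Against the reference RNA, 22 of the 40 genes lay above 0 on all 3 vector arrays and 16 below (41.7% and 42.7% of all features). In the knockdown, 12 lay above 0 on all 3 arrays and 25 below (42.6% and 40.7% of all features). On both rescue arrays 26 lay above and 12 below (45% and 44.4% of all features). Dyes were not swapped, so a ratio to the reference may hold dye bias. By the software's own ratios, 24 genes lay above 0 and 14 below on the vector arrays, and 13 above and 25 below on the knockdown arrays.

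The rescue line differed from the vector line in several of these genes, as it did in many features of the array. Both rescue arrays lay above all 3 vector arrays in 18 genes (45%, against 34.4% of all features). They lay below them in 9 (22.5%, against 28% of all features). The widest gap was that of Brca2, with 0.94 and 1.01 on the rescue arrays and -0.82 to -0.89 on the vector arrays, a difference of means of 1.82. Brca1 was 0.87 higher and Atr 0.69 higher on the rescue arrays. Line, Mtdh genotype, vector, slide and scan all differ between these groups and cannot be told apart.

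The second comparison asked how Mtdh with the W391D change, which weakens its binding to Snd1, differs from wild-type Mtdh in knockout cells under the same drug. Mtdh itself measured 0.42 on the wild-type and -0.10 on the W391D array, a difference of -0.52, so the constructs also differed in Mtdh signal. There is 1 array per construct, so differences have no replicate check and no test. The pathway genes lay close together on the 2 arrays. Differences of W391D minus wild-type had a median of -0.03 over the 40 genes, with 28 below 0 and 12 above (50.2% of all features lay below 0, and their median was near 0). A single gene, Gen1, lay at or past -0.5, against 0.189% of all features, and 0 genes lay at or past 0.5, against 0.137%.

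The other 39 genes lay between -0.19 and 0.16, at most 1.14-fold apart. The lowest after Gen1 were Brip1 (-0.46 and -0.65 with wild-type and W391D Mtdh, a difference of -0.19) and Bard1 (0.42 and 0.24, -0.18). The highest were Rad50 (-0.08 and 0.08, 0.16), Rad9a (-0.28 and -0.16, 0.11) and Fancd2 (0.21 and 0.30, 0.09). Genes with large changes in the knockdown had small differences here: Rpa3 was 0.26 and 0.14, Exo1 1.26 and 1.25, and Rad54l 0.25 and 0.29.

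**Figure D4:**
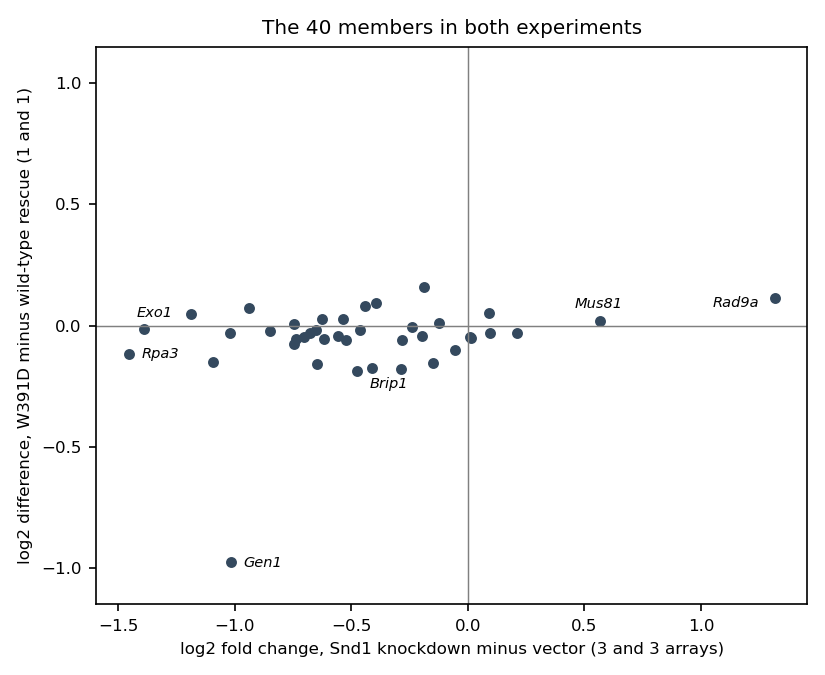
Each point is 1 of the 40 genes, with the knockdown log2 fold change (3 and 3 arrays) on the horizontal axis and the W391D minus wild-type rescue difference (1 and 1 array) on the vertical axis. The points spread from -1.45 to 1.32 across but lie within -0.19 and 0.16 in height, apart from Gen1 at -0.98.

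Gen1 measured 1.10 with wild-type Mtdh and 0.13 with W391D, a difference of -0.98 that ranked 2 from the lowest of 27019 features. The sample dye did not fall: the Cy5 signal of the probe was 843 with wild-type and 1143 with W391D Mtdh. The reference dye of the same spot was 369 on the W391D array and 98.5 to 150 on the other 7 arrays, although the reference RNA is common to all. By Cy5 alone the difference was 0.31, and the other Gen1 probe gave 0.15. The Gen1 difference between the rescue arrays therefore rests on the Cy3 signal of 1 spot. The knockdown difference does not, since Cy5 was 353, 558.5 and 506 in the vector and 156.5, 221.5 and 226 in the knockdown cells at a Cy3 signal of 98.5 to 130.

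**Figure D5:**
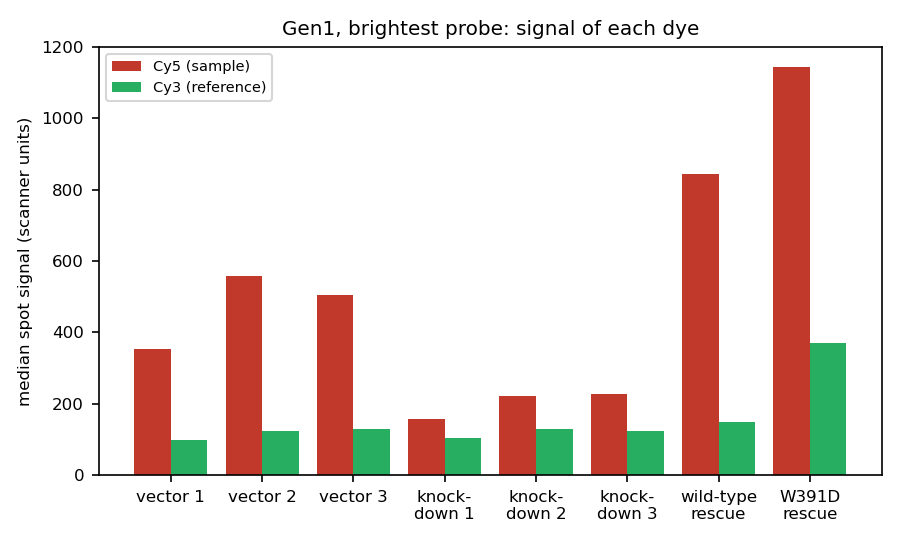
Bars give the median signal of the brightest Gen1 spot in scanner units on each of the 8 arrays, Cy5 for the sample and Cy3 for the reference, on an axis that starts at 0. The Cy3 bar of the W391D array stands at 369 and those of the other arrays at 98.5 to 150, while the Cy5 bars of the knockdown are below those of the vector.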

How the data were processed

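Median spot and local background intensities of both dyes were deposited for each array, from Agilent Feature Extraction 11.0.1.1 per the file headers (the submitters' processing notes name 9.5.3.1). The files also hold deposited log10 ratios of Cy5 to Cy3, which the software had background-subtracted and dye-normalized, per the file headers. The authors' value table holds log2 ratios that matched those log10 ratios array by array (r 0.988 to 1), uncentred, its column medians being 0.091, 0.105 and 0.118 for the knockdown, 0.146, 0.119 and 0.116 for the vector and 0.026 and 0.035 for the rescue arrays.

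Background correction used normexp with an offset of 50 (limma 3.58.1, R 4.3.3), and log ratios were normalized by loess within arrays, leaving out 1639 control spots and 77 to 142 outlier spots per array. Of 41174 probes, 27668 were matched through accessions to RefSeq symbols (GRCm38.p6), and 13506 were not. The probe with the highest mean brightness stood for a gene. The fit took the 25673 features whose Cy5 was flagged well above background on 3 or more of the 6 knockdown and vector arrays, using lmFit and eBayes with Benjamini-Hochberg adjustment over all of them. The rescue arrays were compared without a test. The fit was tested on simulated data.

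The genes and lists were chosen with earlier results of these data known. In each step, array values are given for the 3 called genes with the largest change and for genes called higher or not called. Of the other pathway genes, the 4 lowest and 4 highest called are named. Chek2, Atm and the end joining and replication genes were named after their values were seen. So were genes named for the rescue levels and for large knockdown changes. Knockdown and vector arrays of the same replicate number deviated together from their group means (r = 0.597, 0.325 and 0.338). The numbers were therefore treated as pairs in an alternative fit. Unlike-numbered arrays on the shared second slide did so too (0.39 and 0.247), so replicates 2 and 3 share a slide and are not told apart as pairs.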

Additional observations from a re-analysis of the deposited data

How the results depend on the processing

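Under 23 alternatives to the knockdown comparison, 26 to 32 of the 40 genes were called lower and 2 to 3 higher. The median log2 fold change was -0.67 with the software's log ratios, -0.67 with the series' value table, -0.65 after median centring, -0.58 for the Cy5 channel alone, -0.44 for the mean of a gene's probes, and -0.54 to -0.48 with each array left out. With the replicate number as a block, 30 genes were lower and 3 higher, and this pairing changed no call. With the slide as a block, Hus1 was also called (adjusted p = 0.0471). Rad9a, Mus81, Rpa3, Exo1 and Gen1 kept their calls under all 23.

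Calls were lost for Rpa2, Rad50, Bard1 and Wrn at an adjusted p under 0.01, for Rpa2 after scaling between arrays, for Rad50, Bard1, Fancm and Slx4 in Cy5 alone, for Bard1 without the filter on dim probes or on the second slide alone, and for Wrn with the mean of probes. Rad51c was called with the software's ratios, the value table and without knockdown replicate 2, and Hus1 after median centring. Signs turned in genes without a call. Rad17 was -0.031 by the software's ratios, -0.031 by the value table, -0.13 after median centring, -0.047 in Cy5 alone, and -0.030 to 0.054 with an array left out. Nbn was -0.031, -0.031, -0.13 and -0.096 under the first 4 of these, -0.016 with the mean of probes, and -0.023 to 0.041 with an array left out. Atrip was -0.046 after median centring. The cause of these shifts was not tested. In the rescue pair the median difference was -0.095 after median centring, and 0 genes lay at or past -0.5 in Cy5 alone or with the mean of probes (Gen1).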
